A study of Mus musculus with 4 samples.

Results

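The heavy-strand tRNAs that lie between the mRNAs of the mouse mitochondrial chromosome were described in RNA-sequencing values of heart mitochondria and of the remaining heart tissue. They are the 10 tRNA genes annotated on the + strand between mt-Nd1, which encodes a subunit of respiratory complex I, and mt-Cytb, which encodes cytochrome b of complex III. They were defined by strand and position, with earlier results of these data known. They are 10 of the 22 mitochondrial tRNA genes, of the 37 genes of the mitochondrial chromosome and of the 15746 genes in the deposited table. In order along the chromosome they are mt-Ti, mt-Tm, mt-Tw, mt-Td, mt-Tk, mt-Tg, mt-Tr, mt-Th, mt-Ts2 and mt-Tl2. All 37 mitochondrial genes had the same position and strand in the table and in GENCODE M21 for GRCm38.

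The 4 libraries came from hearts of wild-type (WT) mice, and the labels give no drug treatment and no age. The 2 fractions compared had 2 libraries each, and pairs of values are given in the order replicate 1, replicate 2. Hearts were perfused, minced, treated with trypsin and homogenized, and the pellet of a slow centrifugation, which held the cell debris, was the rest fraction. A faster centrifugation of the supernatant gave the mitochondria, which were then treated with digitonin, a detergent that opens cholesterol-containing membranes, and with RNase A. The fragmentation of RNA before library preparation was adjusted to 1 min for the mitochondrial samples. The detergent, the nuclease and the fragmentation time cannot be told apart from the fraction. No source states that the replicates came from separate mice, so p-values measure only the spread between these samples, which may be technical. The rest fraction is not free of mitochondria, since genes of the mitochondrial chromosome took 63.2% and 67.5% of its normalized counts. In bulk samples of this kind, fewer mitochondria and less RNA in each of them cannot be told apart.

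Mitochondrial RNA is made as long precursors from both strands, in which tRNAs stand between the rRNAs and the mRNAs. The tRNAs are cut out at their 5′ end by the mitochondrial RNase P, which consists of the proteins encoded by Trmt10c, Hsd17b10 and Prorp, and at their 3′ end by the nuclease encoded by Elac2, and these cuts also free most of the flanking mRNAs. Trnt1 then adds the CCA end, further enzymes modify bases, and aminoacyl-tRNA synthetases charge each tRNA with its amino acid for the translation of respiratory chain subunits. The heart depends on this translation because its energy supply is mainly oxidative.

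The 10 genes were 59 to 71 bases long with a GC content of 17.1% to 44.9% (median 31.2%), compared with a median of 35.6% in the 8 light-strand tRNA genes. Each had an anticodon for a different amino acid within a predicted anticodon loop of 7 bases, with all 5 base pairs of the stem in 8 genes, 3 in mt-Tw and 4 in mt-Ts2. The sequences of 7 of them are shown, in the + strand of GRCm38 and as DNA, with the anticodon in capitals. The first 4 are the genes with the highest counts, mt-Td has the lowest GC content, and mt-Ts2 and mt-Tl2 share a base at their border. The sequences do not show the CCA end, which is added after transcription.
mt-Tk, lysine, chrM:7700-7764: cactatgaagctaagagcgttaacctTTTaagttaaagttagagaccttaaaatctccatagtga
mt-Tg, glycine, chrM:9391-9458: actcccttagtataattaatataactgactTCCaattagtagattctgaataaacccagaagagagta
mt-Tm, methionine, chrM:3845-3913: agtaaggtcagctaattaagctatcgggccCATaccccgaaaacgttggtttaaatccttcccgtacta
mt-Th, histidine, chrM:11546-11612: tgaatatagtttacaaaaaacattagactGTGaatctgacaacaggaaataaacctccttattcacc
mt-Td, aspartate, chrM:6942-7011: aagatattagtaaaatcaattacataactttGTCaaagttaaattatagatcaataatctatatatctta
mt-Ts2, serine, chrM:11613-11671: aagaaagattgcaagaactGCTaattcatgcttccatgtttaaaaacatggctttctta
mt-Tl2, leucine, chrM:11671-11741: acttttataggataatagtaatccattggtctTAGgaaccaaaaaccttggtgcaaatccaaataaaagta
The other members were mt-Ti (isoleucine, chrM:3706-3774), mt-Tw (tryptophan, chrM:4950-5016) and mt-Tr (arginine, chrM:9808-9875). A blastn search of the GENCODE transcripts of nuclear genes, with an e-value limit of 1e-05, found a similar nuclear transcript for 0 of the 10 tRNAs and for 13 of the 13 mitochondrial mRNAs. It also found such a transcript for 4 of the 8 light-strand tRNAs and for 3 of the 4 other heavy-strand tRNAs. Nuclear sequence outside annotated transcripts was not searched.

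The deposited values are normalized counts, which the authors obtained by dividing the reads of each gene by the size factor of the library and rounding to whole numbers. From the spacing of the values, the libraries held about 47400000 and 32100000 reads on genes for mitochondrial replicates 1 and 2, and 26300000 and 23500000 for rest replicates 1 and 2. A single read was worth 3.87, 2.55, 0.264 and 0.365 normalized counts in the same order, so that 3 reads correspond to 11.6, 7.65, 0.793 and 1.10 normalized counts. Reads in the rest pair are approximate to about 2 reads because of the rounding. Mitochondrial replicate 1 stood apart from replicate 2: its rRNA genes took 94.5% of the counts against 82.5%, and its mitochondrial mRNAs took 3.04% against 11%. In rest replicates 1 and 2 the rRNAs took 52.6% and 58.4% and the mRNAs 10.6% and 9.07%. All 6 heart muscle markers were above 0 in every library, with summed levels of 263874 and 195749 normalized counts in the mitochondrial pair against 231973 and 204273 in the rest pair, among them Myh6, the main adult cardiac myosin heavy chain, at 128576 to 184487. Myh6 made up most of these sums, and of the other 5 markers Tnnt2, Tnni3, Actc1 and Pln had log2 fold changes of 1.88, 1.58, 0.88 and 0.59 and Ryr2 of -1.35, none of them past the adjusted threshold in limma. Summed markers of endothelial cells were 1107 to 1286 in the mitochondrial pair against 2007 to 2153 in the rest pair, those of fibroblasts 2568 to 6313 and 1626 to 2372, and those of blood 101 to 216 and 265 to 468, with no marker at 0. The blood sum followed the globins Hba-a1 and Hbb-bs, while Ptprc, a marker of white blood cells, had 74 and 46 normalized counts against 36 and 44. The nuclear RNAs Malat1 and Neat1 summed to 8620 to 13629 in the mitochondrial pair against 42245 to 44838 in the rest pair. The part of these other cell types in the results was not tested.

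The 10 tRNAs took a small part of the counts of the mitochondrial chromosome in all libraries. How far the counts of such short genes follow the amounts of the RNAs was not tested. The summed tRNAs had 45880 normalized counts in mitochondrial replicate 1 and 6575 in replicate 2, compared with 1446 and 1790 in the rest pair. This is 0.0256% and 0.00858% of the counts of the mitochondrial chromosome in the mitochondrial pair, and 0.0329% and 0.0309% in the rest pair. Per 1000000 reads on genes, the summed tRNAs had 250 reads in mitochondrial replicate 1, 80.3 in replicate 2, 208 in rest replicate 1 and 209 in rest replicate 2. The rest libraries were nearly equal, while the mitochondrial libraries lay above and below them.

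**Figure D1:**
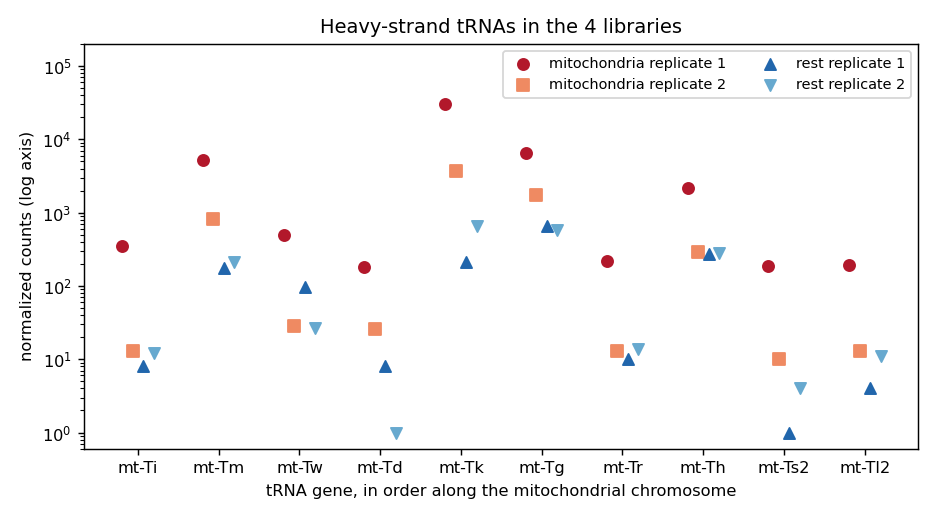
Normalized counts (vertical log axis) of the 10 heavy-strand tRNAs, in order along the mitochondrial chromosome, with a point for each of the 4 libraries. Mitochondrial replicate 1 is the highest point for all 10 tRNAs, and mt-Tk, mt-Tg, mt-Tm and mt-Th lie above the other 6 in every library.

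Counts differed strongly among the 10 genes. The lysine tRNA mt-Tk (ENSMUSG00000064355), which lies between mt-Co2 and mt-Atp8, had 30465 normalized counts in mitochondrial replicate 1, 3650 in replicate 2, and 214 and 649 in the rest pair. The glycine tRNA mt-Tg (ENSMUSG00000064359), between mt-Co3 and mt-Nd3, had 6437 and 1717 against 656 and 577. Both mitochondrial libraries were above both rest libraries for these genes, but the mitochondrial libraries differed from each other by 8.35-fold and 3.75-fold. The methionine tRNA mt-Tm (ENSMUSG00000064344), which serves both the start and the elongation of mitochondrial proteins, had 5167 and 819 normalized counts in the mitochondrial pair and 177 and 213 in the rest pair. The histidine tRNA mt-Th (ENSMUSG00000064364), the first of a run of 3 adjoining tRNA genes before mt-Nd5, had 2165 and 286 against 270 and 282. For mt-Th the mitochondrial replicate 2 was 1.04 times the mean of the rest libraries, so that the separation from the rest fraction came from replicate 1.

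The other 6 genes had at most 503 normalized counts in any library. The tryptophan tRNA mt-Tw (ENSMUSG00000064346) had 503 and 28 normalized counts in the mitochondrial pair and 98 and 27 in the rest pair, and the arginine tRNA mt-Tr (ENSMUSG00000064361) had 221 and 13 against 10 and 14. In these 2 genes the groups overlapped. The isoleucine tRNA mt-Ti (ENSMUSG00000064342) had 356 and 13 against 8 and 12, and the aspartate tRNA mt-Td (ENSMUSG00000064353) had 182 and 26 against 8 and 1. The serine tRNA mt-Ts2 (ENSMUSG00000064365), which reads AGY codons, had 190 and 10 normalized counts against 1 and 4, and the leucine tRNA mt-Tl2 (ENSMUSG00000064366), which reads CUN codons, had 194 and 13 against 4 and 11. Groups of these 4 genes did not overlap, but mitochondrial replicate 2 was close to the rest libraries for mt-Ti and mt-Tl2, at 1.30 and 1.73 times their mean.

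Few reads stood behind the lower 6 genes. In mitochondrial replicate 2 they had 4 to 11 reads each and 40 in all, compared with 47 to 130 each and 425 in all in replicate 1. In rest replicates 1 and 2 they had 4 to 371 and 3 to 74 reads each. As a share of the reads on genes, mt-Ti had 1.94 reads per 1000000 in mitochondrial replicate 1 (95% Wilson interval 1.58 to 2.38) and 0.156 in replicate 2 (0.0665 to 0.365), compared with 1.14 (0.799 to 1.63) and 1.40 (1.00 to 1.97) in the rest pair. The intervals of the mitochondrial libraries did not meet, so the difference between the replicates was larger than the counting error. These intervals and floors cover counting error only, since no molecular identifiers are described for the reads.

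The 4 genes mt-Tk, mt-Tg, mt-Tm and mt-Th, grouped after their values were seen, held 96.4% and 98.4% of the summed normalized counts of the 10 tRNAs in the mitochondrial pair and 91.1% and 96.1% in the rest pair. Their lowest value was 286 against a highest value of 28 among the other 6 genes in mitochondrial replicate 2, and 213 against 27 in rest replicate 2. The groups of genes did not overlap in any library. Per kilobase of gene, the counts of the highest and the lowest member differed by 180-fold and 331-fold in the mitochondrial pair and by 569-fold and 699-fold in the rest pair. By the mean normalized count per kilobase, the order in the mitochondrial pair was mt-Tk, mt-Tg, mt-Tm, mt-Th, mt-Tw, mt-Ti, mt-Tr, mt-Ts2, mt-Td and mt-Tl2. Replicate 1, with the higher counts, weighed most in this mean, but mt-Tk, mt-Tg, mt-Tm, mt-Th and mt-Tw took ranks 1 to 5 in both mitochondrial libraries, whereas mt-Td ranked 10 in replicate 1 and 6 in replicate 2. Of the 9 pairs of neighbours in this order, 9 overlapped between replicates, and the first gene, mt-Tk, had 262423 ± 291709 normalized counts per kilobase (SD, n = 2). In the rest libraries the order was mt-Tg, mt-Tk, mt-Th, mt-Tm, mt-Tw, mt-Tr, mt-Ti, mt-Tl2, mt-Td and mt-Ts2. There mt-Tg had 9066 ± 821 normalized counts per kilobase and mt-Tk had 6638 ± 4732 (SD, n = 2), which did not differ beyond their spread. The neighbours mt-Th and mt-Tm (4119 ± 127 and 2826 ± 369), mt-Tm and mt-Tw (933 ± 749), and mt-Tw and mt-Tr (176 ± 41.6) did not overlap in the rest pair, and the other 6 pairs did. As a description across the 10 genes, which are not independent replicates, Spearman's rho between libraries was 0.855 for the mitochondrial pair and 0.927 for the rest pair, and 0.867 to 0.964 between the fractions.

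The comparison of mitochondria with rest asked which RNAs were enriched with the organelle. Scaled as deposited, the log2 fold change was above 0 in 10 of the 10 tRNAs, from 1.20 for mt-Tw to 4.82 for mt-Tk with a median of 2.73, while scaling to the library total turned 7 of them and scaling to the mitochondrial mRNA total turned 6 of them below 0. The median over the 12150 genes tested was -0.14 as deposited. Values were tested in limma as log2 of the normalized count plus 1, with a trend of the variance on the mean. None of the 10 tRNAs passed, with 0 called higher and 0 called lower at a limit of 0.05 on the p-value after Benjamini-Hochberg adjustment. Of all genes tested, 2.16% were called higher and 1.39% lower. Before adjustment, 5 of the 10 tRNAs were higher at a p-value under 0.05, compared with 14.1% of all genes. These were mt-Tk, mt-Tm, mt-Tg, mt-Td and mt-Ts2. Both mitochondrial libraries were above both rest libraries for 8 of the 10 tRNAs, compared with 27.7% of all genes. However, mt-Td and mt-Ts2 reached the minimum of 10 normalized counts in the mitochondrial pair alone and so could be tested only because they were high there. In the rest pair mt-Ti and mt-Tl2 reached it only in replicate 2, so they too passed only with a mitochondrial library. Among the 8 tRNAs other than mt-Td and mt-Ts2, 3 were higher before adjustment, 6 did not overlap between the fractions, and the median log2 fold change was 2.57. Of those that reached the minimum in both rest libraries, mt-Tk, mt-Tg, mt-Tm and mt-Th did not overlap between the fractions, and mt-Tw and mt-Tr did.

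The lysine tRNA mt-Tk had the largest log2 fold change at 4.82 ± 1.14 (SE, limma, adjusted p = 0.0745). Its mean was 17058 ± 18961 normalized counts over the mitochondrial pair and 431.5 ± 308 over the rest pair (SD, n = 2). The glycine tRNA mt-Tg had the smallest standard error, with a log2 fold change of 2.43 ± 0.643 (SE, limma, adjusted p = 0.0907), and averaged 4077 ± 3338 against 616.5 ± 55.9 normalized counts. For mt-Tm the log2 fold change was 3.40 ± 0.883 (SE, limma, adjusted p = 0.0884). The other 7 tRNAs had standard errors of 0.962 to 1.56 on the log2 scale and adjusted p-values of 0.110 to 0.613. Scaled to the library total, 4 of the 10 tRNAs were called lower, compared with 98.9% of all genes, and scaled to the mitochondrial mRNA total 0 were called in either direction, compared with 0.0412% of all genes called higher and 97.6% called lower. Scaled to the total without the mitochondrial chromosome, mt-Tk was called higher, as were 1.06% of all genes. That total holds Gm28661, outside this chromosome, at 235942 and 399585 normalized counts in the mitochondrial pair and 30675 and 32298 in the rest pair. The part of such genes in this scaling was not tested. Among the 5556 genes with a mean above 50 normalized counts, mt-Tk, mt-Tm and mt-Tg were called higher, as were 14.2% of these genes. On this log2 scale the pseudocount of 1 makes the fold changes of the lowest genes, such as mt-Td and mt-Ts2, smaller than the ratio of their counts.

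**Figure D2:**
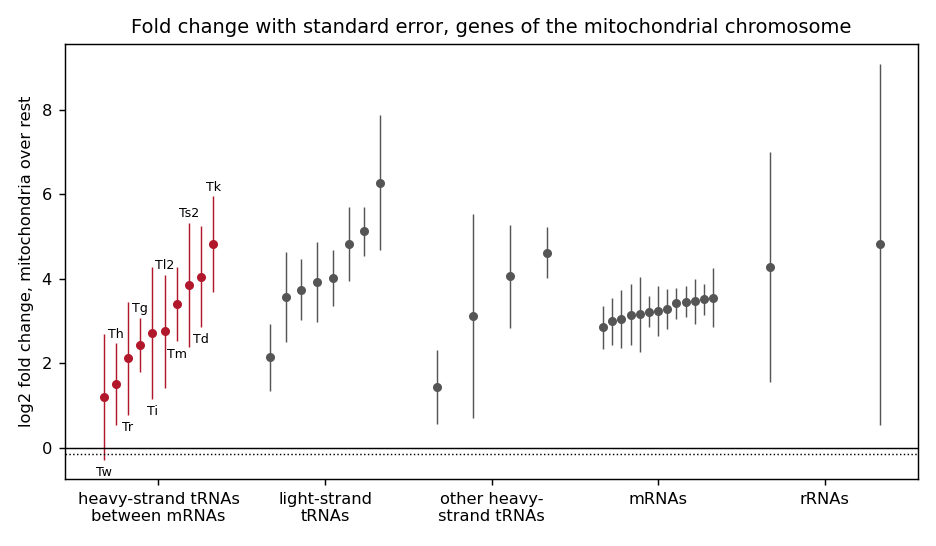
Log2 fold change of mitochondria over rest (points) with its standard error (bars) for the 37 genes of the mitochondrial chromosome, by class and sorted within each class, scaled as deposited, with the heavy-strand tRNAs between the mRNAs in red and the median of all tested genes as a dotted line. The 10 tRNAs range from 1.20 to 4.82 with wide bars, and the 13 mRNAs from 2.85 to 3.56 with narrower ones. Scaled to the mitochondrial mRNA total, 6 of the 10 tRNAs turn below 0.

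The 13 mitochondrial mRNAs had log2 fold changes from 2.85 to 3.56 with a median of 3.24, and 6 of them were called higher in the same limma fit. The 8 light-strand tRNAs had a median of 3.97, with 1 called higher, and the other 4 heavy-strand tRNAs, which flank the rRNAs or follow mt-Cytb, had a median of 3.59, with 1 called higher. The 2 rRNAs had a median of 4.55, and neither was called. Whether the classes differ from each other in fold change was not tested.

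The replicates of the mitochondrial fraction differed in the tRNAs in a common direction. Mitochondrial replicate 1 was above replicate 2 in 10 of the 10 tRNAs, by 3.75-fold for mt-Tg to 27.4-fold for mt-Ti with a median of 11.6-fold, compared with 50.4% of all genes in which replicate 1 was higher. On log2 of the normalized count plus 1, 9 of the 10 tRNAs differed by more than 4-fold, compared with 1.90% of all genes. The exception was mt-Tg, with a difference of 1.91 on the log2 scale. The 13 mRNAs went the other way: replicate 2 was above replicate 1 in 13 of 13, by 1.08-fold to 2.03-fold with a median of 1.71-fold. Light-strand tRNAs differed by more than 4-fold in 5 of 8 genes and the other heavy-strand tRNAs in 3 of 4. Summed over genes, replicate 1 over replicate 2 was 9.38-fold for the other heavy-strand tRNAs, 6.98-fold for the heavy-strand tRNAs between the mRNAs, 3.38-fold for the light-strand tRNAs and 2.56-fold for the rRNAs.

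The 6 genes with the fewest counts had ratios of 7-fold to 27.4-fold between the mitochondrial replicates, and the 4 genes with the most counts 3.75-fold to 8.35-fold. In the rest fraction no common direction was found, since replicate 1 was above replicate 2 in 3 of the 10 tRNAs, compared with 48.5% of all genes. There the difference on log2 of the normalized count plus 1 ranged from -1.60 to 2.17, with a median of -0.36. Among the 4 tRNAs with the highest counts, mt-Tg, mt-Tm and mt-Th were close in the rest pair, while mt-Tk, at 214 and 649 normalized counts, was not. The difference between the mitochondrial replicates moved with the higher share of rRNA in replicate 1, and the part of that share in it was not tested.

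**Figure D3:**
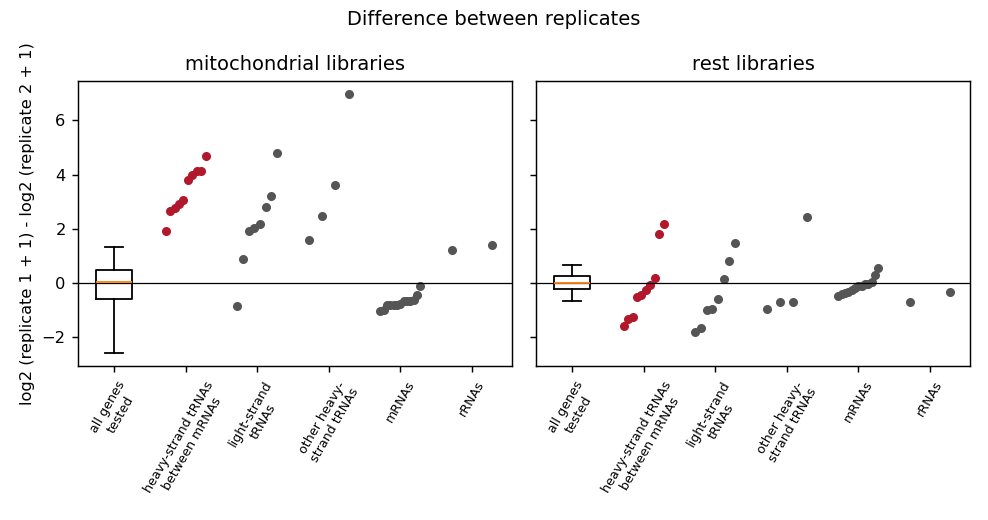
Difference between replicates 1 and 2 on log2 of the normalized count plus 1, for the mitochondrial libraries (left) and the rest libraries (right), with a point for each gene of the mitochondrial chromosome by class, the heavy-strand tRNAs between the mRNAs in red, and for all 12150 tested genes a box (median and quartiles) with whiskers from the lowest to the highest 5%. In the mitochondrial libraries the 10 tRNAs lie at 1.91 to 4.67 and the 13 mRNAs at -1.02 to -0.11, while in the rest libraries the 10 tRNAs lie on both sides of 0.

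Without mitochondrial replicate 1, the log2 fold change against the rest libraries had a median of 1.17 and ranged from -0.86 for mt-Tw to 3.29 for mt-Tk, with 9 of the 10 tRNAs above 0. Without mitochondrial replicate 2, the median was 4.69 and the range 2.97 to 6.35. The lone mitochondrial library is assumed to vary like the other libraries in these limma fits, and none of the 12150 genes was called in them. Both fits had tRNAs at an unadjusted p-value under 0.05, namely 2 without replicate 1, where 15.6% of all genes were higher at that limit, and 8 without replicate 2, where 19.2% were. The size of the enrichment of the tRNAs in the mitochondrial fraction therefore depended on which mitochondrial library was used. Mitochondrial replicate 2 was less than 2 times the mean of the rest libraries for 5 of the 10 tRNAs, namely mt-Ti, mt-Tw, mt-Tr, mt-Th and mt-Tl2.

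A ratio within a library does not depend on the size factor. The summed heavy-strand tRNAs were 0.823% and 0.0731% of the summed mitochondrial mRNAs in mitochondrial replicates 1 and 2, and 0.197% and 0.230% in rest replicates 1 and 2. The mitochondrial libraries lay on either side of the rest libraries, with replicate 1 at 3.87 times the mean of the rest libraries and replicate 2 below it by 2.91-fold. The log2 ratio had a mean of -8.67 ± 2.47 over the mitochondrial pair and of -8.88 ± 0.160 over the rest pair (SD, n = 2), a difference of 0.21 (two-sided exact permutation test, p = 1). With 2 libraries against 2 the smallest p-value this test allows is 0.333. Without mitochondrial replicate 1 the difference was -1.54, and without replicate 2 it was 1.95. The lysine tRNA held most of the sum in mitochondrial replicate 1, and without mt-Tk, an alternative chosen after the data were seen, the ratios were 0.277%, 0.0325%, 0.167% and 0.147% and the difference was -0.72 (two-sided exact permutation test, p = 1).

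Against the light-strand tRNAs, which are cut from the transcript of the opposite strand, the heavy-strand tRNAs between the mRNAs were 64.1% and 31.0% in the mitochondrial pair and 134% and 75.3% in the rest pair. Both mitochondrial libraries were below both rest libraries, with a log2 difference of -1.17 (two-sided exact permutation test, p = 0.333, the smallest possible). The light-strand tRNA mt-Tp held 54129 and 13168 of the 71550 and 21193 light-strand counts in the mitochondrial pair. In the rest pair it held 531 and 1670 of 1077 and 2376. The ratio without mt-Tp was not computed, so the separation may rest on that gene. Relative to the rRNAs the heavy-strand tRNAs between the mRNAs were 0.0265% and 0.00973% in the mitochondrial pair and 0.0395% and 0.0357% in the rest pair, with a log2 difference of -1.23 (two-sided exact permutation test, p = 0.333). Neither ratio overlapped between the fractions, but no comparison of 2 against 2 libraries can pass a threshold of 0.05. The light-strand tRNAs relative to the mRNAs were 1.28% and 0.236% against 0.146% and 0.305%, and overlapped (log2 difference 1.38, two-sided exact permutation test, p = 0.667). Over these 3 other ratios no adjusted p-value is given, since the smallest p already misses the threshold.

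**Figure D4:**
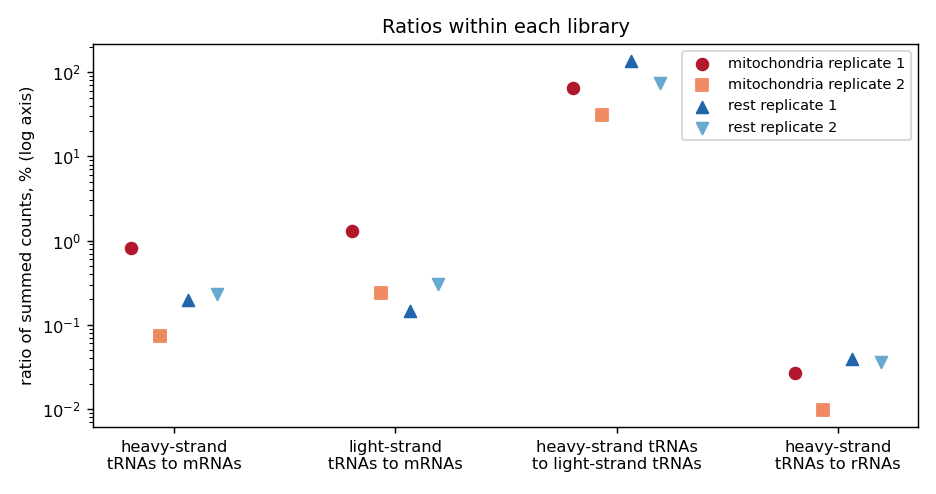
Ratios of summed normalized counts within each library, in percent on a log axis, with a point for each of the 4 libraries. The ratio of the heavy-strand tRNAs to the mRNAs is 0.823% and 0.0731% in the mitochondrial pair, on either side of 0.197% and 0.230% in the rest pair, and the ratios to the light-strand tRNAs and to the rRNAs are lower in both mitochondrial libraries than in both rest libraries. In the mitochondrial pair mt-Tp holds 54129 and 13168 of the 71550 and 21193 light-strand counts, and the ratio without it was not computed.

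Next to their own neighbours the counts of the tRNAs also differed by orders of magnitude. Each tRNA was set per kilobase against the mean of the nearest mRNA genes on its left and right, which are parts of the same precursor. The lysine tRNA mt-Tk reached 182% of mt-Co2 and mt-Atp8, subunits of cytochrome oxidase and of the ATP synthase, in mitochondrial replicate 1, compared with 12.5% in replicate 2 and 9.92% and 26.2% in the rest pair. It was above its neighbours in that library only, among the 10 tRNAs and 4 libraries. By the stated methods, reads that aligned to several places were left out. A similar nuclear transcript was found for 13 of the 13 mitochondrial mRNAs and for 0 of the 10 tRNAs. For 9 of the 13 mRNAs a match reached 95% identity over 50 or more aligned bases. The gene Gm28661, outside the mitochondrial chromosome, had 235942 and 399585 normalized counts in the mitochondrial pair, and mt-Co2 had 220411 and 385874. In the rest pair Gm28661 had 30675 and 32298 and mt-Co2 had 28834 and 31087. Whether the deposited values follow the rule on reads with several places was not tested. Nor was it tested whether that rule lowered the mRNA levels used here and in the summed ratios. The glycine tRNA mt-Tg was at 49.0% and 6.84% of mt-Co3 and mt-Nd3 in the mitochondrial pair and at 36.6% and 23.3% in the rest pair. The methionine tRNA mt-Tm was at 20.2% and 1.67% of mt-Nd1 and mt-Nd2, against 4.44% and 4.22%. Between mt-Nd4 and mt-Nd5, the histidine tRNA mt-Th was at 7% and 0.646% in the mitochondrial pair against 7.31% and 8.65% in the rest pair, while the adjoining mt-Ts2 was at 0.697% and 0.0256% against 0.0307% and 0.139%, and mt-Tl2 at 0.592% and 0.0277% against 0.102% and 0.318%. These 3 tRNAs follow each other without a gap and have the same mRNA neighbours, yet mt-Th was above the other 2 in every library.

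The isoleucine tRNA mt-Ti, which has the same mRNA neighbours as mt-Tm, was at 1.39% and 0.0264% in the mitochondrial pair and at 0.201% and 0.238% in the rest pair. The remaining mt-Tw, mt-Td and mt-Tr were at most at 2.15% of their neighbours in any library. Over the 10 tRNAs the median was 1.77% and 0.0612% in mitochondrial replicates 1 and 2 and 1.27% and 0.863% in rest replicates 1 and 2. Mitochondrial replicate 1 was above both rest libraries in 8 of the 10 tRNAs, the exceptions being mt-Tw and mt-Th, and mitochondrial replicate 2 was below both rest libraries in 8, the exceptions being mt-Td and mt-Tk. For most of these tRNAs the mitochondrial libraries thus enclosed the rest libraries.

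**Figure D5:**
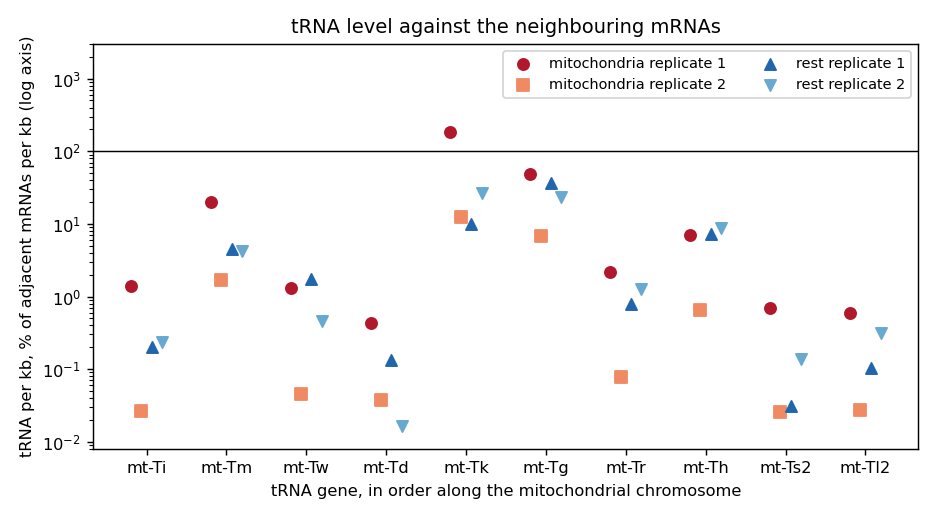
Level of each heavy-strand tRNA per kilobase as a percentage of the mean level per kilobase of the mRNA genes on either side (log axis), with a point for each of the 4 libraries and a line at 100%. The point for mt-Tk in mitochondrial replicate 1, at 182%, is the only point above the line, and mitochondrial replicate 2 is below both rest libraries for 8 of the 10 tRNAs.

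The position of the genes bounds which reads could be counted. Reads were 75 bases long before trimming, and trimmed reads of 30 bases or more were kept. By the stated methods, reads that overlapped several genes were left out. Between the nearest annotated genes on either strand, the 10 tRNAs had windows of 58 to 74 bases, all shorter than the full read length. An untrimmed read aligned over its full length on any of them would therefore reach a neighbouring gene if strand was not used in the counting. The strand setting is not given in the sources used here. If strand was used, mt-Ti, mt-Tm, mt-Tw and mt-Td had windows of 137, 139, 376 and 140 bases and the other 6 tRNAs remained under 75 bases. Of the 4 with the wider same-strand window, only mt-Tm was among the 4 tRNAs with the highest counts, and mt-Tk, mt-Tg and mt-Th had windows of 69, 68 and 68 bases by either rule. By the stated counting, a read of an uncut precursor that reached into both a tRNA and an adjoining gene of the same strand was counted for neither.

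Annotated overlaps were found for 4 of the 10 tRNAs. The gene mt-Ti overlaps mt-Nd1 by 2 bases and the light-strand tRNA mt-Tq by 3 bases, mt-Tw overlaps mt-Nd2 by 2 bases, and mt-Ts2 and mt-Tl2 share 1 base. All 4 belonged to the lower 6 genes, as did mt-Td and mt-Tr, which overlap no gene. For the 6 tRNAs without an overlap, the ratio of their sum to the mRNAs was 0.801% and 0.0724% in the mitochondrial pair against 0.181% and 0.223% in the rest pair, close to the ratio of all 10. As a description over the 10 genes, Spearman's rho between the either-strand window and the level per kilobase was -0.15 and 0.26 in the mitochondrial pair against 0.04 and -0.06 in the rest pair, and that between GC content and the level per kilobase was 0.54 and 0.35 in the mitochondrial pair against 0.26 and 0.45 in the rest pair. The genes share their libraries and a chromosome, and these values were not tested.

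Of the 12140 other genes tested, 2 had a profile over the 4 libraries within a distance of 1 of the mean profile of the 10 tRNAs, measured as the Euclidean distance between centred log2 values, where the median gene was at 3.89 and the members themselves at 0.742 to 2.24. The nearest was Mettl26, a nuclear gene on chromosome 17, at a distance of 0.234 with 294 and 23 normalized counts in the mitochondrial pair against 9 and 12 in the rest pair. It was followed by the light-strand serine tRNA mt-Ts1, which lies directly before mt-Td, at 0.719 with 639 and 69 against 18 and 16. The next 3 were the nuclear gene Wdr66 at 1.09, the glutamine tRNA mt-Tq at 1.17, which lies between mt-Ti and mt-Tm on the opposite strand, and the threonine tRNA mt-Tt at 1.26. Of these 5 genes, 3 were mitochondrial tRNAs.

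The nuclear genes that mature and charge these tRNAs were listed as 33 genes, of which 31 passed the filter on low values and Trmt61b and Qtrt1 did not. In the same limma fit, 0 of the 31 were called higher and 0 lower, beside 2.16% and 1.39% of all genes. Before adjustment, Hsd17b10, Kars and Hars2 were higher and Wars2 was lower at a p-value under 0.05, which is 3 and 1 of the 31 genes beside 14.1% and 16.2% of all genes. The median log2 fold change was 0.01, compared with -0.14 over all genes, with 16 genes above and 15 below 0. As these are mRNAs of nuclear genes, their level in a fraction does not measure the enzymes.

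Among the genes for the ends of the tRNAs, Hsd17b10 had the largest log2 fold change of the list, with 136 and 148 normalized counts in the mitochondrial pair against 60 and 50 in the rest pair. The groups did not overlap, and the log2 fold change was 1.36 ± 0.219 (SE, limma, adjusted p = 0.0511). The other RNase P subunits were level or low, with 23 and 51 against 27 and 43 normalized counts for Trmt10c, which binds the tRNA precursor, and 4 and 18 against 12 and 11 for Prorp, which carries the nuclease. In mitochondrial replicate 1 Prorp was below the 11.6 normalized counts that 3 reads make up there. Elac2, which cuts the 3′ end, had 43 and 51 against 52 and 52, and Trnt1 had 85 and 43 against 49 and 58. The fractions overlapped for Trmt10c, Prorp and Trnt1, and for Elac2 the nearest libraries were 1 normalized count apart.

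The genes of the synthetases for the tRNAs with the highest counts did not pass the threshold either. Kars, which makes both the cytosolic and the mitochondrial lysyl-tRNA synthetase, had 209 and 151 normalized counts in the mitochondrial pair against 113 and 108 in the rest pair. Gars, which also serves both compartments, for glycine, had 194 and 227 against 160 and 173, and the histidine enzyme Hars2 had 54 and 66 against 32 and 35. In all 3 genes both mitochondrial libraries were above both rest libraries, as in 27.7% of all genes tested. The methionine enzyme Mars2 had 39 and 38 against 39 and 41, a log2 fold change of -0.05. The tryptophan enzyme Wars2 had 8 and 10 against 23 and 19, where the mitochondrial libraries were at 2 to 4 reads. The gene of the leucine enzyme, Lars2, had 1929 and 52653 normalized counts in the mitochondrial pair against 1440 and 113689 in the rest pair. The replicates of each fraction thus differed by more than the fractions, with a log2 fold change of -0.34 ± 2.58 (SE, limma, adjusted p = 0.938). Whether the reads counted on Lars2 came from its mRNA was not tested. The most negative log2 fold change of the list was that of Alkbh1, a demethylase of tRNA, with 0 and 15 normalized counts against 33 and 29 and an adjusted p-value of 0.218 in limma. Its value of -3.00 depends on the pseudocount because mitochondrial replicate 1 was at 0, where 3 reads would be 11.6 normalized counts.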

How the data were processed

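RNA-seq libraries of 2 mitochondrial and 2 rest fractions of mouse heart were grouped by the labels. Libraries were made from 10 ng of total RNA with a stranded kit for small inputs. Per the labels, the authors used Trimmomatic 0.39, STAR 2.7.10a, featureCounts 2.0.2 and DESeq2 1.30.1 with mm10, and the methods name other versions of some of these tools. By the stated methods, reads that touched more than a single gene or aligned to more than a single place were dropped. Whether the deposited values follow this rule was not tested. The deposited values are a normalized score per gene, made by the authors by dividing counts by size factors and rounding, so that count tests were not run. The sources name RNeasy and miRNeasy under the same catalogue number.

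Genes reaching 10 normalized counts in 2 or more libraries, 12150 in number, were tested with limma 3.58.1 (R 4.3.3) on log2 of the value plus a pseudocount of 1, with a mean-variance trend, two-sided, and with Benjamini-Hochberg adjustment over these genes. Ratios were compared by exact permutation. Reads per library came from the spacing of the values. Shares have Wilson intervals at 95%. Scripts were tested on simulated data. Sequences and positions came from GENCODE M21 (GRCm38), and transcripts were searched with blastn 2.17.0. Scripts ran in Python 3.11.15 with scipy 1.17.1, pandas 2.3.3, matplotlib 3.10.9 and numpy 2.4.6.

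The members and the gene lists were chosen with earlier results of these data known. Named genes were the 10 members, the genes adjoining or overlapping them, the genes of the maturation and charging list past the threshold or otherwise with the largest and the most negative fold change, and the 5 genes with the nearest profiles. Other genes of that list were named for their role or after their values were seen, among them Lars2, Kars and Wars2. The light-strand tRNA mt-Tp and the gene Gm28661 were named after their values were seen. Alternatives were other scalings, filters and pseudocounts, the replicate number as a block, each library left out, and other forms of the ratio.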

Additional observations from a re-analysis of the deposited data

How the results depend on the processing

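Recomputed size factors, no filter and a pseudocount of 10 gave 0 calls among the 10 tRNAs in either direction, as did the values scaled as deposited. A pseudocount of 0.1 and each library left out gave 0 calls among all 12150 genes and so say nothing about the tRNAs. The number called higher was 1 (mt-Tk) when scaled to the total without the mitochondrial chromosome, 3 (mt-Tk, mt-Tm and mt-Tg) among genes with a mean above 50, where fewer genes were tested, and 3 (mt-Td, mt-Tm and mt-Tg) with the replicate block, which called 3.87% of all genes higher and 2.54% lower. Scaled to the library total, 4 tRNAs (mt-Tr, mt-Tw, mt-Tg and mt-Th) were called lower, as were 98.9% of all genes, and log2 fold changes turned to -1.08 for mt-Ti, -0.58 for mt-Tm, -2.72 for mt-Tw, -1.55 for mt-Tg, -1.68 for mt-Tr, -2.47 for mt-Th and -0.97 for mt-Tl2. The median of the tRNAs was then -1.03 beside -3.93 over all genes. Scaled to the mitochondrial mRNA total, which moved the median of all genes to -3.24 and called 97.6% of them lower and 0.0412% higher, they turned to -0.28 for mt-Ti, -1.93 for mt-Tw, -0.79 for mt-Tg, -0.89 for mt-Tr, -1.70 for mt-Th and -0.18 for mt-Tl2, with a median of -0.23 and 0 calls (0 at an unadjusted p-value under 0.05). With a library left out, mt-Tw ranged from -0.86, without mitochondrial replicate 1, to 3.26.

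Of the maturation and charging genes, 1 was called higher with recomputed size factors, with no filter, among genes with a mean above 50, with a pseudocount of 10 and with the replicate block, where 2.46%, 1.77%, 14.2%, 4.41% and 3.87% of all genes were. Called lower were 31 when scaled to the library total (98.9% of all genes), 3 when scaled to the total without the mitochondrial chromosome (31.4%) and 30 when scaled to the mitochondrial mRNA total (97.6%). The cause of the other changes was not tested.

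The log2 difference of the tRNA to mRNA ratio was 0.21 with the replicate block, as without it, and it was 2.07 within replicate 1 and -1.65 within replicate 2. It was -1.17 by the median over genes, 0.26 without overlapping genes and -1.57 per length against adjacent mRNAs, and ranged from -1.54 to 1.95 with a library left out. No source says that libraries with the same number share mice, and across 12150 genes the deviations of same-numbered libraries correlated with r = 0.13, so the number was not taken as a pairing. Depth limits the lower 6 tRNAs most, with 4 to 11 reads each in mitochondrial replicate 2.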
